A study of Mus musculus with 27 samples.

Results

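Naive mouse embryonic stem cells without TET enzymes carried about as much DNA methylation as wild-type cells that had spent 2 days leaving the naive state, and the comparison asked where in the genome that methylation lay. The first group, TET_KO_D0, is a line that lacks all 3 TET genes (genotype TET1/2/3_KO), kept as naive embryonic stem cells in 2i and LIF and sampled on day 0. The second, TET_WT_D2, is the parental wild-type line sampled on day 2 as epiblast-like cells. The members were chosen by position and completeness: all autosomal windows of about 100 CpGs that had a value in each of the 27 libraries of the series. This left 422141 windows of 453245 in all, compared over 6 libraries, 3 per group. Both groups share the parental line, and they differ in genotype and in day together, so genotype and day cannot be told apart. Whether the knockout line is 1 clone, and whether the 3 replicates were separate cultures, is not given in the sources used here, so p-values cover only the spread among these libraries, and that spread may be technical.

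TET enzymes oxidise 5-methylcytosine and so open a route to its removal, while DNMT enzymes add and copy the mark. Naive cells in 2i and LIF are known for low methylation, and wild-type cells gain it as they turn into epiblast-like cells. Bisulfite sequencing reads the methylated share of each cytosine and does not separate 5-methylcytosine from 5-hydroxymethylcytosine. Levels below are percent methylation, and differences are percentage points of TET_KO_D0 minus TET_WT_D2 with their SE. Expression was not measured, so neither cell state could be checked against marker genes. A percent table cannot show the deletions themselves: the body of Tet1 stood at 48.9% in TET_KO_D0 and 41.3% in TET_WT_D2, that of Tet2 at 39.0% in TET_KO_D0 and 41.2% in TET_WT_D2, and that of Tet3 at 53.2% in TET_KO_D0 and 56.8% in TET_WT_D2.

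As examples of genes with a displaced start region, the 300 bases around 6 starts follow, 250 before and 50 after the start. They are from RefSeq on GRCm38.p6, with CpG sites in capitals. These genes were chosen after their values were seen. The first 4 lay in windows with more methylation in TET_KO_D0: Lhx9, a LIM-homeobox factor of gonad and brain development (chr1:138842395-138842694, minus strand), Insl3, a testicular hormone (chr8:71689002-71689301, plus), Vrtn, a gene tied to vertebral number (chr12:84642305-84642604, plus), and Hormad1, a meiotic chromosome-axis protein (chr3:95559427-95559726, plus).

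Lhx9: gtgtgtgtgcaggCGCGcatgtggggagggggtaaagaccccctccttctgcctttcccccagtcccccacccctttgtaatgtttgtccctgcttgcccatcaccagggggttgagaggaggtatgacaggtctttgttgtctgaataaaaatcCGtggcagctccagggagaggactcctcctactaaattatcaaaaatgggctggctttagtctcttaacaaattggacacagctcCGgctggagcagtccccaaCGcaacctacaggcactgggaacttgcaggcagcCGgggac
Insl3: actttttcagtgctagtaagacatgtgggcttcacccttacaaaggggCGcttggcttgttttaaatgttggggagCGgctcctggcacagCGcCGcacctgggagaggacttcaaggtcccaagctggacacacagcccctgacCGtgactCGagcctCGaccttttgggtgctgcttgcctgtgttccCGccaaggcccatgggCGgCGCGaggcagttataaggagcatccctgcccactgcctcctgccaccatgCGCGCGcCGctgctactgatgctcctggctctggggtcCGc
Vrtn: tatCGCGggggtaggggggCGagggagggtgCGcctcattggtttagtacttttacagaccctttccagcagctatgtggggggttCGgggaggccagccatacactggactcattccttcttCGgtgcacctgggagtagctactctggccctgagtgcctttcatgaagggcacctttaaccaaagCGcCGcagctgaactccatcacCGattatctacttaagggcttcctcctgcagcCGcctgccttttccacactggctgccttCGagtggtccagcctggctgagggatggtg
Hormad1: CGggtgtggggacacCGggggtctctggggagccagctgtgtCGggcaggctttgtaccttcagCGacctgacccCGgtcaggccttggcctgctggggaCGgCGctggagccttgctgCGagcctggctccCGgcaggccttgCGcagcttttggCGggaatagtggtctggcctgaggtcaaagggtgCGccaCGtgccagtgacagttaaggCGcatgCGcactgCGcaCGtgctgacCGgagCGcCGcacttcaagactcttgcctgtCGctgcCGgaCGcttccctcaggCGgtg

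The other two lay in windows with less methylation in TET_KO_D0: Tcl1, an AKT coactivator of naive cells (chr12:105222688-105222987, minus strand), and Tex19.1, a gene of germ cells and placenta (chr11:121145893-121146192, plus).

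Tcl1: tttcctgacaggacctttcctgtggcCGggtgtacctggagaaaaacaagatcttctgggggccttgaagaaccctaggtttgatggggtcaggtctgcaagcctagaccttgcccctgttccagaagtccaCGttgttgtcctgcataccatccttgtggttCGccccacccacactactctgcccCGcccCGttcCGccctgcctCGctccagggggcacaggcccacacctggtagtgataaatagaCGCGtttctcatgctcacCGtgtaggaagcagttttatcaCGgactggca
Tex19.1: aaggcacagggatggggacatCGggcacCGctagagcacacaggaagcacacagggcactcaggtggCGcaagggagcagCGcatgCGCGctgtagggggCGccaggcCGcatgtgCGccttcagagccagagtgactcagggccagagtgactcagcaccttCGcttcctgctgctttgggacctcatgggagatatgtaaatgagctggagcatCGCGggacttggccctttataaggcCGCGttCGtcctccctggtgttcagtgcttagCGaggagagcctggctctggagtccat

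By the letters CG, read once for both strands, these hold 6 sites in Lhx9, 16 in Insl3, 11 in Vrtn, 24 in Hormad1, 11 in Tcl1 and 16 in Tex19.1. Of the 32851 promoters in the table, 56.4% hold at least 6, 41.4% at least 11, 33.0% at least 16 and 19.98% at least 24. These 6 are thus of middling to high CpG content and do not stand for called starts in general. The starts called higher and those called lower each had a median of 4 CpGs, beside 8 over all 25090 genes with a measured start.

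The 2 groups were set side by side because their genome means are about equal. TET_KO_D0 libraries averaged 51.4, 51.0 and 53.1% over the autosomal windows, against 51.8, 55.6 and 50.7% in TET_WT_D2 libraries. The ranges overlapped, and replicate 2 of TET_WT_D2 stood above the other two. The group means differed by -0.87 ± 1.62 points, given as a description since that chose the comparison. Without that replicate the difference was 0.58 points, and weighted by window length it was 0.07 points, so its sign rested on 1 library and on the weighting.

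The spread of methylation around these means differed. Windows at 50 to 70% made up 58.7% ± 0.242 of the genome in TET_KO_D0 and 45.3% ± 0.564 in TET_WT_D2 (SD, n = 3 each). Windows at 70% or more made up 6.04, 5.07 and 9.49% in TET_KO_D0 libraries, against 15.8, 23.9 and 12.6% in TET_WT_D2 libraries. Neither range overlapped. Almost unmethylated windows, under 10%, made up overlapping shares, 4.99% ± 0.0342 in TET_KO_D0 and 5.10% ± 0.130 in TET_WT_D2. The SD over windows was 16.9 points in TET_KO_D0 and 19.08 points in TET_WT_D2.

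**Figure D1:**
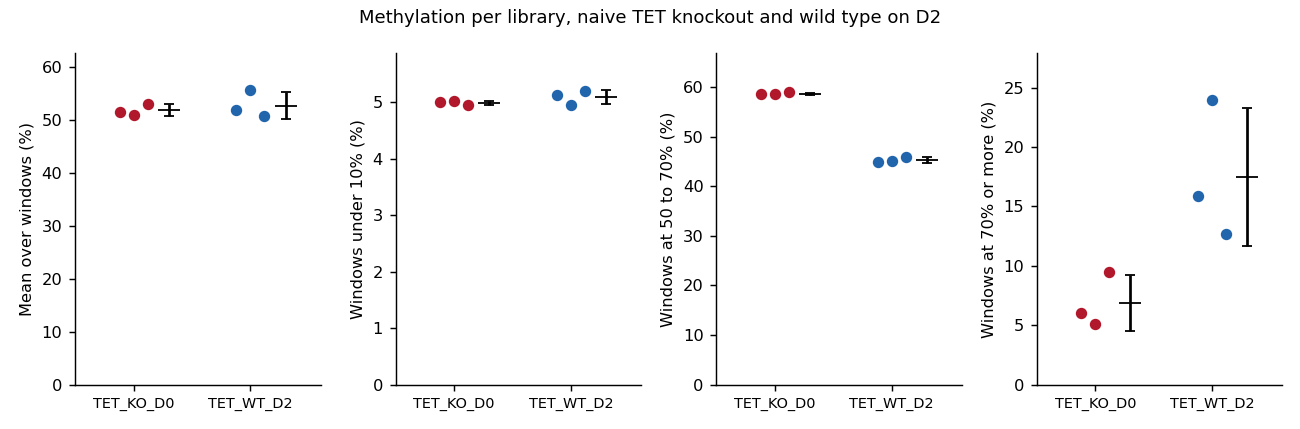
Mean methylation and the share of windows under 10%, at 50 to 70% and at 70% or more, for each library (points) with mean and SD (bar) of TET_KO_D0 and TET_WT_D2. The means overlap, while the knockout libraries hold 58.7% of windows at 50 to 70%, against 45.3% in the wild type.

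Window by window, the groups differed far more than replicates did. The SD of the difference between 2 libraries was 7.45 to 7.75 points across groups, against 3.97 to 4.06 points among TET_KO_D0 libraries and 3.66 to 4.71 points among TET_WT_D2 libraries. Called means an adjusted p under 0.05 in limma's moderated test, Benjamini-Hochberg adjusted over all nuclear windows, with a difference of at least 10 points. Of the 422141 windows, 24114 were higher in TET_KO_D0 (5.71%) and 29939 were lower (7.09%). At 20 points or more there were 1806 higher (0.428%) and 1739 lower (0.412%) windows. The 3 libraries of one group lay wholly above those of the other in 15.8% of windows for TET_KO_D0 and in 25.3% for TET_WT_D2. Differences of single windows ran from -60.6 to 73.4 points, with 1st and 99th percentiles of -16.2 and 16.4.

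The balance of higher and lower windows depended on the genome level that the libraries were given. With each library shifted to the same median there were 28909 higher and 24727 lower windows (53.9% higher), and with the same mean 30806 higher and 22652 lower, so that higher windows made up 57.6% of calls in place of 44.6%. Without TET_WT_D2 replicate 2 the counts were 38941 and 20110, without TET_WT_D2 replicate 3 they were 17775 and 42036, and without TET_KO_D0 replicate 3 they were 15730 and 34240. No window called in one direction was called in the other under any of these settings. That would take a difference of at least 10 points with the other sign, so its absence says little. In all, 12120 windows were called higher and 14602 lower under all of these settings together with the fit over 27 libraries, the logit scale, the replicate block and the 3 other single omissions.

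**Figure D2:**
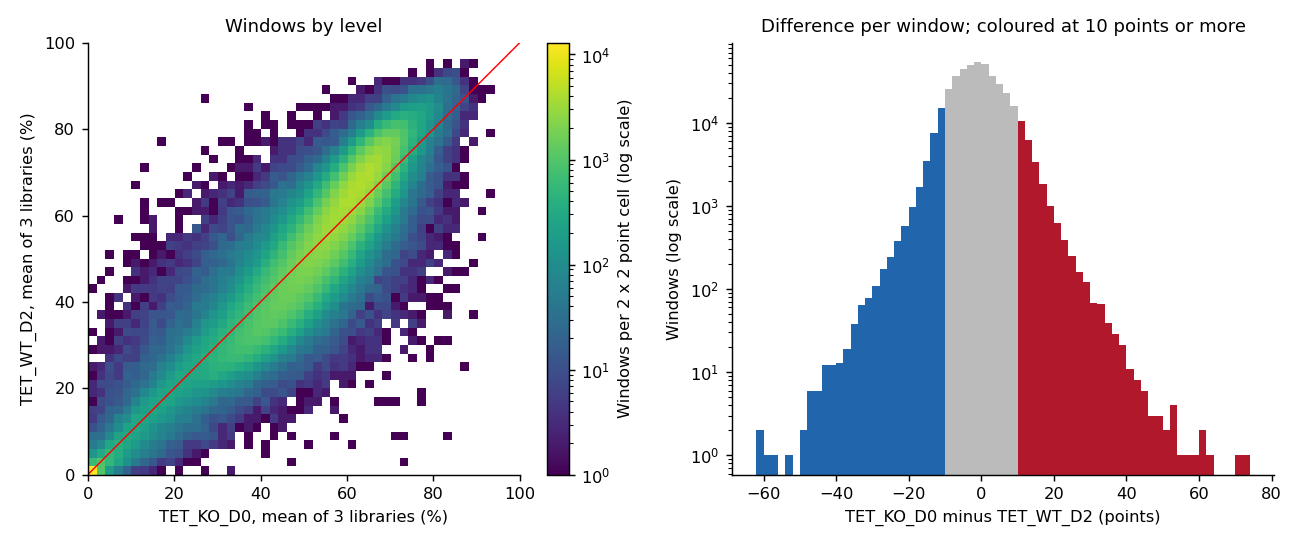
Left, the windows by their mean level in TET_KO_D0 (horizontal, %) and TET_WT_D2 (vertical, %), coloured by the number of windows on a log scale, with the line of equality in red. Right, the number of windows (log scale) by their difference, coloured where it reaches 10 points. Differences run from -60.6 to 73.4 points, and 1806 windows lie at 20 points or more above and 1739 below.

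Where methylation lay depended on CpG spacing. Each window holds about the same number of CpGs, so a long window is CpG-poor and a short one CpG-dense. In windows of 10 to 16 kb, TET_KO_D0 libraries stood at 44.5, 44.2 and 46.3%, against 38.9, 44.0 and 38.2% in TET_WT_D2 libraries. All 3 knockout libraries lay above the wild type, replicate 2 of TET_WT_D2 by a narrow margin. The difference was 4.64 ± 1.95 points (two-sided exact permutation p = 0.1, the smallest that 3 against 3 allow), 17.1% of these windows were called higher and 1.71% lower. The 948 windows over 16 kb stood at 40.6, 40.4 and 42.5% in TET_KO_D0 libraries, against 35.4, 40.5 and 34.9% in TET_WT_D2 libraries. Here replicate 2 of TET_WT_D2 overlapped the knockout, and the difference was 4.203 ± 1.92 points (exact permutation p = 0.2). In windows of 3 to 6 kb, which hold 46.5% of all windows, the libraries stood at 57.2, 56.7 and 58.9% in TET_KO_D0, against 59.8, 63.4 and 58.4% in TET_WT_D2. These ranges overlapped, the difference was -2.98 ± 1.64 points (exact permutation p = 0.2), and 2.35% of the windows were called higher and 9.71% lower. Without TET_WT_D2 replicate 2 this class differed by -1.54 points.

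The CpG-densest windows, under 1 kb, were nearly unmethylated in both groups. They stood at 3.15, 3.15 and 3.296% in TET_KO_D0 libraries, against 2.56, 2.63 and 2.55% in TET_WT_D2 libraries. The ranges did not overlap, with a difference of 0.62 ± 0.05 points (exact permutation p = 0.1, the smallest possible; 1.24 points with equal library medians), and 304 of 15896 such windows were called higher and 44 lower. Over 10 classes of equal size by length the difference ran from -3.37 points in the 4th to 4.54 points in the class of the longest windows. The median SD between replicates was 0.476 points in windows under 1 kb and 3.12 to 3.20 points in every class from 1 kb upwards.

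The level from which the wild type began, taken from TET_WT_D0, sorted the differences too. That level comes from the same line as TET_WT_D2 but from libraries that were not compared here. In windows above 40% in TET_WT_D0, TET_KO_D0 libraries stood at 68.2, 67.6 and 70.1%, against 74.3, 77.0 and 73.2% in TET_WT_D2 libraries. No library overlapped, the difference was -6.16 ± 1.35 points (exact permutation p = 0.1, the smallest possible), and 20.8% of these windows were called lower and 0.853% higher. In windows at 5 to 15% in TET_WT_D0 the means were 36.4% ± 0.860 in TET_KO_D0 and 33.8% ± 2.64 in TET_WT_D2. There 15.5% of windows were called higher and 5.86% lower, while the class means differed by 2.61 ± 1.61 points with overlapping libraries.

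The 2 groupings did not give the same classes. Windows of 10 to 16 kb that began at 5 to 15% differed by 6.98 points, at 34.9% in TET_KO_D0 and 27.96% in TET_WT_D2, with 23.8% called higher and 0.0200% lower. Windows of the same length that began above 40% differed by -6.41 points, at 65.4% in TET_KO_D0 and 71.8% in TET_WT_D2, with 23.0% called lower. Windows of 3 to 6 kb that began under 5% stood at 21.5% in TET_KO_D0 and 27.04% in TET_WT_D2, and 30.5% of the 2525 windows were called lower. Among windows under 1 kb, the 48 that began at 25 to 40% stood at 68.6% in TET_KO_D0 and 48.8% in TET_WT_D2, and 68.8% of them were called higher.

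**Figure D3:**
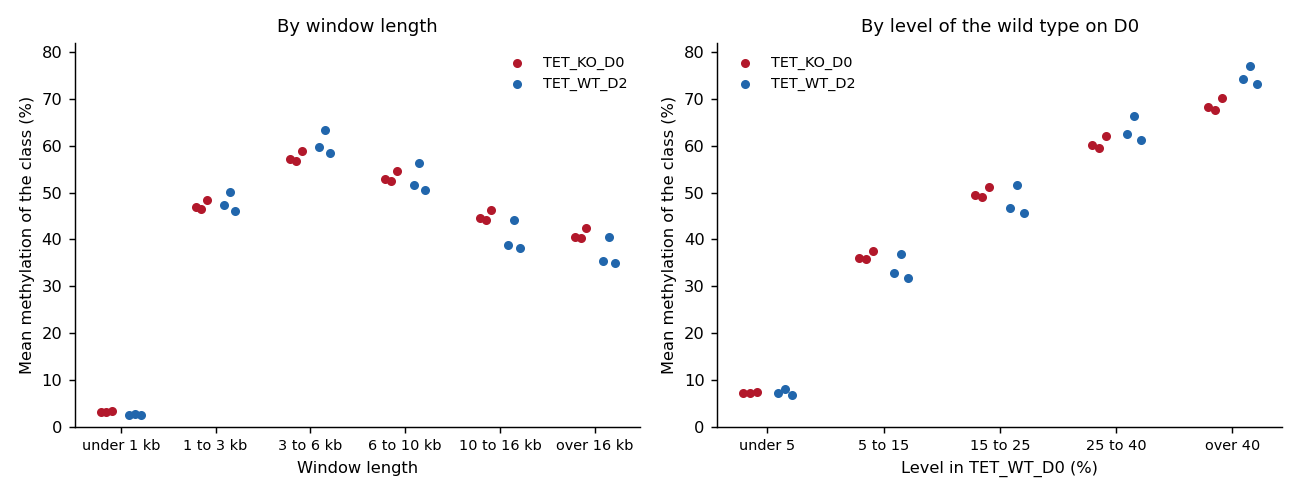
Mean methylation (%) of windows grouped by length (left) and by their level in TET_WT_D0 (right), one point per library, TET_KO_D0 left of TET_WT_D2 in each class. TET_KO_D0 lies above in windows of 10 to 16 kb (45.0% in TET_KO_D0, 40.4% in TET_WT_D2) and below in windows over 40% in TET_WT_D0 (68.6% in TET_KO_D0, 74.8% in TET_WT_D2).

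Over windows of all lengths, lower calls were commoner in protein-coding genes and higher calls between genes. Windows in bodies of protein-coding genes averaged 50.7% ± 1.07 in TET_KO_D0 and 52.5% ± 2.42 in TET_WT_D2, with 4.25% called higher and 8.48% lower. Windows between genes averaged 53.1% ± 1.14 in TET_KO_D0 and 52.8% ± 2.79 in TET_WT_D2, with 7.82% called higher and 5.44% lower. Both class means overlapped between the groups. The order differed in short windows: at 1 to 3 kb, 5.52% were called lower in protein-coding genes and 11.6% between genes, and 7.39% were called higher in protein-coding genes and 6.27% between genes. Under 1 kb, 0.118% were called lower in protein-coding genes and 2.31% between genes. By chromosome, the difference ran from -2.05 points on chromosome 9 to 0.65 points on chromosome 14. On chromosome 14, 10.7% of windows were called higher, and on chromosome 9 it was 3.14%.

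Called windows of the 2 directions differed in make-up. Those higher in TET_KO_D0 had a median length of 7692 bp, 27.2% were longer than 10 kb, 50.02% lay between genes, and 82.7% had begun at 5 to 25% in TET_WT_D0. Those lower had a median length of 4481 bp, 63.7% were of 3 to 6 kb, 62.6% lay in protein-coding genes, and 29.1% had begun above 40%. Of the windows that were not called, 8.51% were longer than 10 kb and 52.4% lay in protein-coding genes.

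Neighbouring windows were often called together. Of the windows higher in TET_KO_D0, 51.9% had a neighbour called higher, against 6.96% of all windows not called higher. Of the lower windows 43.2% had a neighbour called lower, against 10.3% of all windows not called lower. Runs of at least 10 adjoining called windows numbered 90 for higher and 8 for lower windows. On chromosome 14, which holds 4.54% of all windows, lay 25 of the 90. The longest run spanned 34 windows and 239.7 kb inside Prkd1, a protein kinase gene (chr12:50406711-50646400). Its mean was 53.9, 52.3 and 54.6% in TET_KO_D0 libraries, against 35.2, 40.2 and 35.7% in TET_WT_D2 libraries, with no overlap. The difference did not end with the run, whose limits follow the call. At -143 kb from its centre TET_KO_D0 stood at 47.4% and TET_WT_D2 at 28.5%. At 138 kb on the other side they stood at 45.5 and 31.8%. Some windows beside the run differed little, such as 61.5 and 60.8% at -121.7 kb. Next in length came 27 windows in Pcdh9, a protocadherin gene of neurons (chr14:93525620-93753586), at 46.1% in TET_KO_D0 and 31.2% in TET_WT_D2. Another run of 26 windows lay at chr14:111928734-112208240, where Gm22764 is the one annotated gene, at 49.9% in TET_KO_D0 and 31.8% in TET_WT_D2.

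The runs of lower windows were shorter. The longest held 15 windows across an olfactory receptor cluster that includes Olfr251 and Olfr898 (chr9:38314977-38452494), at 59.2, 59.1 and 62.1% in TET_KO_D0 libraries, against 73.0, 76.8 and 72.8% in TET_WT_D2 libraries. A run of 12 windows in Thada (chr17:84348218-84409345) stood at 57.9% in TET_KO_D0 and 72.5% in TET_WT_D2. Another was a run of 10 windows across Trp53cor1, the p53-induced RNA also called lincRNA-p21 (chr17:29049686-29080204); it was chosen after its values were seen. It stood at 24.8, 24.9 and 23.4% in TET_KO_D0 libraries, against 46.5, 53.3 and 46.2% in TET_WT_D2 libraries. In TET_WT_D0 the same run was at 2.79%, so it was almost unmethylated at the start of the wild-type course.

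**Figure D4:**
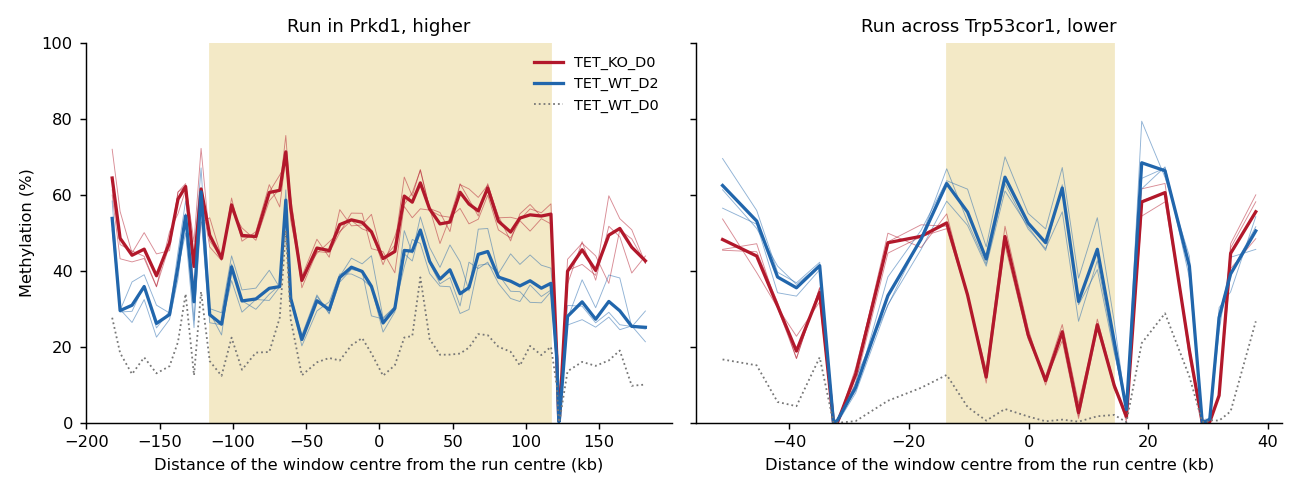
Methylation (%) of single windows by distance of the window centre from the centre of the run (kb), for the 34 windows in Prkd1 (left) and the 10 windows across Trp53cor1 (right); the run is shaded, thick lines are group means, thin lines single libraries and the dotted line TET_WT_D0. TET_KO_D0 lies above TET_WT_D2 along the whole Prkd1 run (53.6% in TET_KO_D0, 37.0% in TET_WT_D2) and below it along the Trp53cor1 run (24.4% in TET_KO_D0, 48.7% in TET_WT_D2).

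The same windows were read in libraries that took no part in the calls. These were TET_KO_D1, the knockout line on day 1, and DNMT_WT_D2, epiblast-like cells on day 2 labelled as the wild type of the DNMT experiments. They differ in line, genotype and day together. The 2 wild types also began far apart: on day 0 the genome mean was 3.17% in DNMT_WT_D0 and 25.4% in TET_WT_D0. Windows called higher averaged 57.9% ± 0.353 in TET_KO_D1 and 36.6% ± 0.378 in DNMT_WT_D2. Windows called lower averaged 63.6% ± 0.859 in TET_KO_D1 and 63.1% ± 0.479 in DNMT_WT_D2. The higher-called minus lower-called contrast was -5.68 ± 0.507 points in TET_KO_D1 and -26.6 ± 0.102 points in DNMT_WT_D2 (SD, n = 3 each). The contrast thus differed by 20.9 ± 0.298 points with no overlap, at an exact permutation p of 0.1, the smallest possible. With each library centred on its own mean, all 3 TET_KO_D1 libraries lay above all 3 DNMT_WT_D2 libraries in 81.1% of windows called higher, against 29.8% of all windows. They lay below in 73.5% of windows called lower, against 33.6% of all. TET_KO_D1 is the same knockout line as TET_KO_D0, so this repeats the line and not an independent knockout.

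Lower windows that were almost unmethylated in naive wild-type cells are described next by their levels on other days; they were chosen for a higher level in TET_WT_D2. The 1275 lower windows under 5% in TET_WT_D0 stood at 18.8% ± 0.219 in TET_KO_D0 and 37.1% ± 3.18 in TET_WT_D2. In TET_KO_D1 they were at 23.3% ± 0.747 and in TET_KO_D2 at 47.7% ± 2.02, a step of 24.4 ± 1.25 points. In DNMT_WT_D2 they stood at 40.9% ± 0.564.

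The largest differences of single windows came close to on-off contrasts. The highest lay in Lhx9, at 82.7, 82.8 and 82.04% in TET_KO_D0 libraries, against 9.15, 7.67 and 10.4% in TET_WT_D2 libraries (chr1:138840133-138841660). It differed by 73.4 ± 2.72 points (adjusted p = 4.39e-08, limma), and the adjoining window chr1:138841661-138842298 by 71.2 ± 3.59 (adjusted p = 3.33e-07, limma). DNMT_WT_D2 stood at 17.8% in the first of these, so both wild types were low on day 2. The window holding the Lhx9 start, printed above in part, stood at 45.3, 48.2 and 49.5% in TET_KO_D0 libraries, against 1.56, 4.54 and 3.90% in TET_WT_D2 libraries. The printed start of Lhx9 was thus higher in TET_KO_D0 as well. It lies at 138842444, inside the gene body as annotated (chr1:138825186-138848839), so it is not the outer end of this minus-strand gene. The CpG-dense end of the body stood at 6.77% in TET_KO_D0 and 1.72% in TET_WT_D2 and was not called. The body mean of Lhx9, given below, includes these windows and is not a separate observation.

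A window of Mir142, which encodes a microRNA known from blood cells, was also among the 10 highest (chr11:87754617-87756945). It stood at 60.1, 63.3 and 57.8% in TET_KO_D0 libraries, against 6.60, 9.32 and 6.33% in TET_WT_D2 libraries, a difference of 53.0 ± 2.43 points (adjusted p = 2.41e-07, limma). DNMT_WT_D2 was at 44.0% there, so the 2 wild types stood far apart on day 2. Of 958 miRNA loci with a mature sequence in a tested window, 65 were in windows called higher (6.78%) and 81 in windows called lower (8.46%), beside 5.71 and 7.09% of all windows. One higher window held the Mir106b, Mir93 and Mir25 genes together (chr5:138164862-138167287), a cluster hosted by Mcm7 and related to the cell-cycle miR-17 family. It stood at 55.1, 51.9 and 56.4% in TET_KO_D0 libraries, against 31.5, 36.5 and 18.3% in TET_WT_D2 libraries (25.7 ± 3.99 points, adjusted p = 0.00109, limma). These loci were chosen after their values were seen. Their mature sequences, with the seed of bases 2 to 8 in capitals, are from RefSeq on GRCm38.p6.

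mmu-miR-142a-5p: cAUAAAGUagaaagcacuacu
mmu-miR-142a-3p: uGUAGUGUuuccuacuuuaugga
mmu-miR-106b-5p: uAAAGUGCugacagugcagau
mmu-miR-93-5p: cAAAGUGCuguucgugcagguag
mmu-miR-25-3p: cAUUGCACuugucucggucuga

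The seed AAAGUGC is shared by miR-106b-5p and miR-93-5p, and miR-25-3p and both arms of miR-142a have seeds of their own. Methylation of a window says nothing of the level of these RNAs, which was not measured.

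Among the 10 lowest windows, levels on other days fell into different patterns. A window of Mtmr7, a myotubularin gene, stood at 16.5, 18.3 and 14.3% in TET_KO_D0 libraries, against 75.8, 75.9 and 77.5% in TET_WT_D2 libraries (chr8:40567071-40571237, -60.0 ± 2.77 points, adjusted p = 2.41e-07, limma). TET_WT_D0 was already at 49.4% there, while TET_KO_D2 stood at 19.99% and DNMT_WT_D2 at 14.2%, after 2.40% in DNMT_WT_D0. A window of Tex21 was alike (chr12:76222915-76228203), at 10.8% in TET_KO_D0 and 67.3% in TET_WT_D2, with 40.6% in TET_WT_D0 and 16.4% in TET_KO_D2. Windows of Dym (chr18:75207791-75211736) and Lrrc8b, a subunit of a volume-regulated anion channel (chr5:105442036-105447071), showed the other pattern. Dym stood at 13.2% in TET_KO_D0 and 63.1% in TET_WT_D2, but TET_KO_D2 reached 65.7% and TET_WT_D0 had only 1.15%. Lrrc8b stood at 24.2% in TET_KO_D0 and 71.2% in TET_WT_D2, and TET_KO_D2 reached 62.5%. In all, 89 of the 29939 lower windows had TET_KO_D0 at least 10 points below TET_WT_D0, so that the knockout lay under its own parent on day 0. In 11 of the lower windows TET_KO_D2 stayed under 30% while TET_WT_D2 was over 50%.

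Over gene bodies, 1382 of 46064 RefSeq genes of any type were higher in TET_KO_D0 (3%) and 1342 were lower (2.91%), together 5.91%. Among the 20350 protein-coding genes 341 were higher (1.68%) and 217 lower (1.07%). A gene's level is the mean of the windows that overlap its body, and genes that overlap or lie close share windows. With equal library means the counts were 1867 higher and 899 lower genes, or 67.5% higher in place of 50.7%, and with equal medians 1710 and 1028. Without TET_WT_D2 replicate 2 they were 2469 and 811, and without replicate 3 of that group 1090 and 2087. The median gene differed by -1.34 points, by -0.71 with equal library medians and by -0.46 with equal means.

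Of the 10 genes of at least 3 windows with the largest excess in TET_KO_D0, 4 are given here. Lhx9 had a body mean of 47.4, 48.2 and 48.5% in TET_KO_D0 libraries, against 17.1, 17.6 and 16.4% in TET_WT_D2 libraries (31.0 ± 1.74 points, adjusted p = 4.56e-10, limma). Shmt2, the mitochondrial serine hydroxymethyltransferase of one-carbon metabolism, had 47.3, 45.6 and 48.3% in TET_KO_D0 libraries, against 25.1, 32.6 and 23.8% in TET_WT_D2 libraries (19.9 ± 2.29 points). Scd2, a stearoyl-CoA desaturase, had 43.8, 44.9 and 46.0% in TET_KO_D0 libraries, against 25, 33.1 and 26.04% in TET_WT_D2 libraries (16.9 ± 2.21 points). Hottip, a noncoding RNA at the end of the HoxA cluster, had 51.0, 51.8 and 54.4% in TET_KO_D0 libraries, against 25.98, 29.02 and 27.3% in TET_WT_D2 libraries (24.9 ± 2.06 points). None of these 4 overlapped between groups. At the CpG-dense end of the gene, the shorter of its first and last windows, where 1829 of all genes were higher (3.97%) and 1772 lower (3.85%), Hottip still differed, by 34.8 points, while Lhx9 differed by 5.04 points and Scd2 by -1.24 points, neither called.

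Peg13, an imprinted noncoding RNA inside Trappc9, was among the 10 genes of at least 3 windows with the largest deficit. It had a body mean of 30.6, 31.2 and 34.9% in TET_KO_D0 libraries, against 65.1, 70.6 and 60.6% in TET_WT_D2 libraries (-33.2 ± 2.46 points, adjusted p = 2.00e-08, limma). Its most displaced window, 724 bp at chr15:72809399-72810122, stood at 10.4, 3.25 and 7.48% in TET_KO_D0 libraries, against 64.6, 61.8 and 53.5% in TET_WT_D2 libraries. That window was at 44.2% in TET_WT_D0, at 5.67% in TET_KO_D2 and at 10.7% in DNMT_WT_D2, after 3.57% in DNMT_WT_D0. Trp53cor1 had 20.5, 20.1 and 18.5% in TET_KO_D0 libraries, against 43.2, 51.0 and 43.9% in TET_WT_D2 libraries (-26.4 ± 2.08 points, adjusted p = 3.88e-08, limma). Gm8493 and Gm51701, both annotated as noncoding, differed by -30.5 ± 1.93 and -25.6 ± 1.82 points, with TET_WT_D0 at 30.2% and 23.4%.

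Genes of naive pluripotency leaned toward less methylation in TET_KO_D0. Of 32 measured, 0 were called higher and 3 lower, where 3% of all genes were called higher and 2.91% lower, with a median of -3.31 points, beside -1.34 over all genes. Tcl1 had 37.5, 35.5 and 37.8% in TET_KO_D0 libraries, against 55.3, 59.0 and 55.8% in TET_WT_D2 libraries (-19.8 ± 2.11 points, adjusted p = 2.23e-06, limma). Prdm14, a transcriptional regulator of the naive state, had 29.8, 28.3 and 30.05% in TET_KO_D0 libraries, against 39.9, 42.3 and 37.7% in TET_WT_D2 libraries (-10.6 ± 1.92 points). Tbx3, a T-box factor of the naive network, had 3.76, 3.44 and 3.92% in TET_KO_D0 libraries, against 12.9, 15.4 and 13.0% in TET_WT_D2 libraries (-10.1 ± 0.772 points). The groups did not overlap in any of the 3. At its CpG-dense end Tbx3 differed by -0.46 points and was not called, at 0.0789% in TET_KO_D0 and 0.541% in TET_WT_D2. Prdm14 and Tbx3 lay near 10 points, and with equal library means or medians, or without TET_WT_D2 replicate 2, Tcl1 alone was called. The 29 uncalled members ran from -9.08 points for Tfcp2l1 to 7.03 for Manba. At an unadjusted p under 0.05 in limma, 4 members were higher and 16 lower. Of all 46064 genes, 7255 were higher (15.7%) and 11392 lower (24.7%) at that unadjusted p.

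Genes of the formative and primed epiblast leaned the other way. Of 31 measured, 4 were called higher and 0 lower, beside 3% and 2.91% of all genes, with a median of 2.19 points. At an unadjusted p under 0.05 in limma 16 were higher and 2 lower, beside 15.7% higher and 24.7% lower of all genes. The 27 uncalled members ran from -4.46 points for Ncam1 to 9.74 for Lefty1, and 9 of the 31 were negative. Fgf5, at 0.23 points, was nearly level. At the 17 measured starts of this list 0 were called, beside 3.39% higher and 3.64% lower of all starts. Spry4, an inhibitor of FGF signalling, had 35.8, 37.3 and 38.4% in TET_KO_D0 libraries, against 19.6, 20.4 and 19.3% in TET_WT_D2 libraries (17.4 ± 1.58 points, adjusted p = 2.63e-07, limma). Epha2, an ephrin receptor, had 43.8, 43.0 and 43.0% in TET_KO_D0 libraries, against 25.5, 32.8 and 25.1% in TET_WT_D2 libraries (15.5 ± 2.16 points). Dusp6, the phosphatase that limits ERK, had 22.4, 21.4 and 22.7% in TET_KO_D0 libraries, against 10.7, 12.05 and 11.5% in TET_WT_D2 libraries (10.7 ± 1.02 points). Wnt8a, a Wnt ligand, had 49.99, 48.4 and 52.6% in TET_KO_D0 libraries, against 39.0, 42.0 and 37.6% in TET_WT_D2 libraries (10.8 ± 2.19 points). No library overlapped in these 4, and Wnt8a was not called without TET_KO_D0 replicate 3 or TET_WT_D2 replicate 3. At their CpG-dense ends Spry4, Epha2 and Dusp6 were at 5.73% or less in both groups and were not called, so their difference lay in the rest of the gene.

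Hox genes, which pattern the body axis, had the highest median of the 12 lists. Of 39 genes, 37 had a positive difference, the median was 3.69 points, and 2 were called higher and 0 lower, beside 3% and 2.91% of all genes. With an unadjusted p under 0.05 in limma 33 were higher and 1 lower, beside 15.7% higher and 24.7% lower of all genes. Many share windows within the 4 clusters. Hoxd12 had 30.2, 33.8 and 27.5% in TET_KO_D0 libraries, against 19.06, 19.2 and 17.4% in TET_WT_D2 libraries (11.997 ± 1.598 points, adjusted p = 2.93e-05, limma). Hoxb1 had 32.2, 35.9 and 35.5% in TET_KO_D0 libraries, against 23.3, 24.5 and 22.1% in TET_WT_D2 libraries (11.3 ± 1.68 points). Neuroectoderm genes had a median of 2.26 points over 28 members, with 1 called higher and 1 lower. Emx2, a forebrain homeobox gene, was called higher (35.1% in TET_KO_D0 and 19.5% in TET_WT_D2), and Hesx1, a homeobox gene of the anterior forebrain and pituitary, lower (37.3% in TET_KO_D0 and 50.1% in TET_WT_D2). The medians of the naive, formative, Hox and neuroectoderm lists kept their signs with equal library means or medians.

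**Figure D5:**
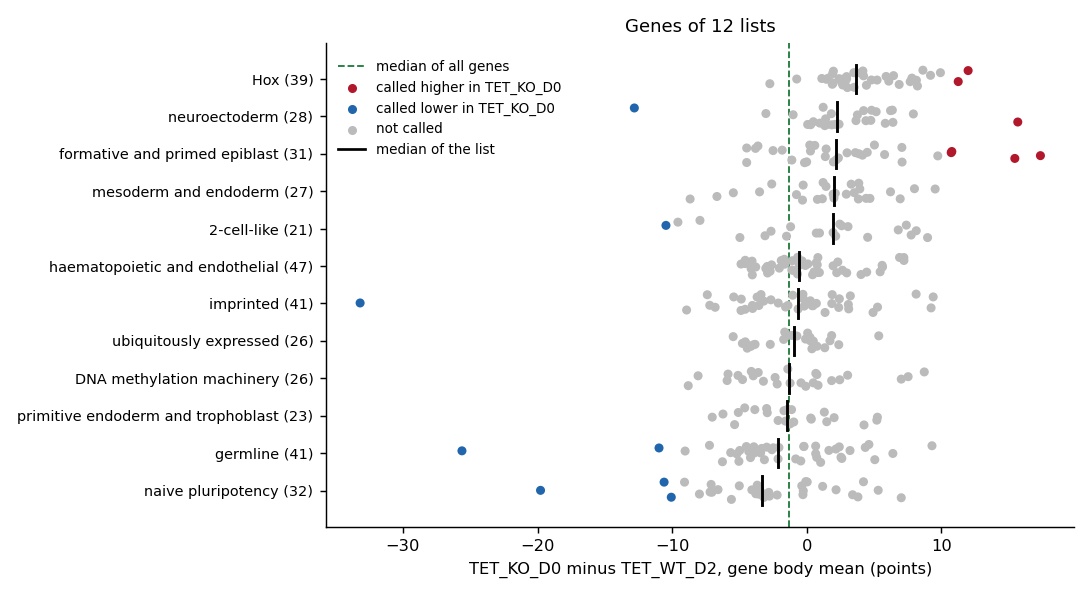
Difference of TET_KO_D0 minus TET_WT_D2 in gene body mean (points) for each measured gene of 12 lists, with the number of genes in brackets; black bars are list medians and the dashed line is the median of all genes. Hox genes have a median of 3.69 points and naive pluripotency genes of -3.31 points, beside -1.34 over all genes.

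Other lists held few calls over the body. Over the body, 0 of 41 germline genes were called higher and 2 lower, beside 3% and 2.91% of all genes. The 2 were Tex19.1 and Nanos3, a gene of primordial germ cell survival. At the 33 measured starts of this list, 4 were higher (Sycp1, Piwil4, Hormad1 and Fkbp6) and 3 lower (Tex19.1, Tdrd12 and Nanos3), beside 3.39% higher and 3.64% lower of all starts. Over the body Tex19.1 had 28.1, 26.7 and 27.7% in TET_KO_D0 libraries, against 52.1, 55.2 and 51.9% in TET_WT_D2 libraries (-25.6 ± 2.05 points, adjusted p = 4.52e-08, limma). Nanos3 had 47.9, 42.6 and 42.2% in TET_KO_D0 libraries, against 53.7, 57.2 and 54.7% in TET_WT_D2 libraries (-11.0 ± 2.21 points) and was not called without TET_KO_D0 replicate 3. Of 41 imprinted genes Peg13 was the one called over the body. At the 30 measured starts of this list 1 was higher (Inpp5f) and 4 were lower (Mirg, Airn, and Peg3 and Usp29, which share a window). The shares of all starts were again 3.39% higher and 3.64% lower. Of 21 genes of the 2-cell-like state, many of them multi-copy with uncertain mapping, Pramel6 was called lower at 61.0% in TET_KO_D0 and 71.4% in TET_WT_D2, a call lost with equal library means or medians and without TET_KO_D0 replicate 3 or TET_WT_D2 replicate 2.

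Of 47 haematopoietic and endothelial genes limma called 0, with 8 higher and 3 lower at an unadjusted p under 0.05. The shares of all genes at that p, 15.7% higher and 24.7% lower, are the background for each such count here. Over the body Lyl1, a factor of blood stem cells, differed most among them, at 24.2% in TET_KO_D0 and 17.0% in TET_WT_D2 (7.23 ± 1.30 points). At the 34 measured starts of this list 1 was called higher and 1 lower, beside 3.39% and 3.64% of all starts. They were Lyl1 (55.1% in TET_KO_D0 and 35.7% in TET_WT_D2) and Eng (43.1% in TET_KO_D0 and 55.2% in TET_WT_D2). Mesoderm and endoderm genes gave 0 body calls of 27, with 10 higher and 3 lower at an unadjusted p under 0.05. Primitive endoderm and trophoblast genes gave 0 of 23 (2 higher and 4 lower at that p), ubiquitously expressed genes 0 of 26 (2 higher and 8 lower) and genes of the DNA methylation machinery 0 of 26 (4 higher and 6 lower). At measured starts, Tbx6 and Tcf21 of the 17 mesoderm and endoderm genes were called higher and 0 lower. Psg17 was called lower and 0 higher of the 18 primitive endoderm and trophoblast genes, and 0 starts were called in the ubiquitous and machinery lists. Dnmt1, the maintenance enzyme, stood at 60.1% in TET_KO_D0 and 59.2% in TET_WT_D2, and Uhrf1, its cofactor, at 38.7% in TET_KO_D0 and 36.9% in TET_WT_D2. Of the de novo enzymes, Dnmt3a stood at 48.9% in TET_KO_D0 and 50.3% in TET_WT_D2, and Dnmt3b at 48.2% in TET_KO_D0 and 53.0% in TET_WT_D2. Dnmt3l, their cofactor, stood at 45.7% in TET_KO_D0 and 42.6% in TET_WT_D2. The Tet1 body differed by 7.54 ± 2.32 points (adjusted p = 0.0221, limma), under the 10-point minimum.

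Among gene families named by symbol, olfactory receptors held the most calls. Of 1096, 100 were called higher (9.12%) and 13 lower (1.19%), beside 3 and 2.91% of all genes and 1.68 and 1.07% of protein-coding genes. Of single windows, 5.71% were called higher and 7.09% lower. Longer genes average over more windows than a receptor such as Olfr138, which has 1, so shares of genes are not a like background. The family had a median of 4.21 points and means of 45.2% in TET_KO_D0 and 41.4% in TET_WT_D2. Receptors of one cluster share windows, so they are not independent. Higher calls numbered 209 without TET_WT_D2 replicate 2 and 154 with equal library means. Olfr138 stood at 56.6, 66.7 and 62.9% in TET_KO_D0 libraries, against 38.3, 48.3 and 35.2% in TET_WT_D2 libraries. Clustered protocadherins, cell-surface proteins of neurons, had a median of 4.84 points over 57 genes that largely share their windows, with limma calling 0 and 46 higher and 0 lower at an unadjusted p under 0.05. Vomeronasal receptors had 10 higher and 4 lower calls of 302. Zfp-named zinc finger genes had 2 higher and 5 lower calls of 389, with a median of -2.30 points. Zfp33b, at 39.6% in TET_KO_D0 and 60.2% in TET_WT_D2, had the largest deficit of these. Replication-dependent histone genes had 2 higher and 0 lower calls of 58, a median of -1.03 points, and 5 higher and 22 lower at an unadjusted p under 0.05 in limma. The 2 called, H2bc1 and H2ac1, are neighbours that share a window, so they are not independent. One of the 2 called, H2bc1, a testis histone gene, stood at 50.5, 44.8 and 41.1% in TET_KO_D0 libraries, against 19.9, 18.995 and 19.7% in TET_WT_D2 libraries (25.9 ± 2.11 points, adjusted p = 6.12e-08, limma). Signs of the olfactory receptor, protocadherin and Zfp medians held with equal library means or medians.

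Calls were less frequent at gene starts than over all windows. A start was read as the window that holds it, for 25090 genes with a promoter in the RefSeq table; 851 were higher in TET_KO_D0 (3.39%) and 913 lower (3.64%). The 6855 genes with over 20 CpGs in the 300 bases stood at 4.72% ± 0.114 in TET_KO_D0 and 4.84% ± 0.367 in TET_WT_D2, with 28 called higher and 17 lower. Genes with 3 to 5 CpGs stood at 51.9% ± 1.04 in TET_KO_D0 and 53.4% ± 2.64 in TET_WT_D2, with 183 higher and 337 lower. In no class of CpG number did the group means differ by more than 1.46 points.

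The starts printed above show how far single genes departed from this. Insl3 stood at 55.1, 53.4 and 51.0% in TET_KO_D0 libraries, against 19.5, 20.9 and 17.9% in TET_WT_D2 libraries (33.7 ± 2.49 points, adjusted p = 4.23e-06, limma). Vrtn stood at 45.6, 41.3 and 49.3% in TET_KO_D0 libraries, against 16.2, 14.8 and 17.6% in TET_WT_D2 libraries (29.2 ± 2.40 points). Hormad1 stood at 53.8, 64.3 and 56.8% in TET_KO_D0 libraries, against 38.2, 31.5 and 24.8% in TET_WT_D2 libraries (26.8 ± 3.79 points). Tcl1 stood at 3.97, 4.27 and 3.82% in TET_KO_D0 libraries, against 29.5, 33.5 and 31.2% in TET_WT_D2 libraries (-27.4 ± 1.29 points, adjusted p = 2.55e-07, limma). In TET_WT_D0 the Tcl1 start was at 1.03% and in TET_KO_D2 it reached 32.2%, the level of TET_WT_D2. Tex19.1 stood at 29.5, 26.6 and 29.9% in TET_KO_D0 libraries, against 54.4, 52.4 and 50.9% in TET_WT_D2 libraries (-23.9 ± 2.68 points), with TET_WT_D0 at 20.8%.

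Miip, a gene linked to cell migration, had a start window at 33.3, 32.6 and 30.3% in TET_KO_D0 libraries, against 0.486, 0 and 0% (as listed) in TET_WT_D2 libraries (31.9 ± 1.14 points, adjusted p = 4.39e-08, limma). Its DNMT_WT_D2 mean was 32.1%, near the knockout, while TET_WT_D0 was at 0.0868%. The shared start window of Peg3 and Usp29, an imprinted pair, stood at 6.37, 7.30 and 5.83% in TET_KO_D0 libraries, against 21.4, 38.6 and 25.6% in TET_WT_D2 libraries (-22.1 ± 3.01 points, adjusted p = 0.000451, limma). TET_WT_D0 was at 18.9%, TET_KO_D2 at 7.27% and DNMT_WT_D2 at 5.71%, after 0.624% in DNMT_WT_D0. Inpp5f, also on the imprinted list, was higher at its start, at 37.1% in TET_KO_D0 and 14.7% in TET_WT_D2. Of 19 naive pluripotency genes with a measured start, Tcl1 and Nr5a2, an orphan nuclear receptor, were lower and 0 were higher. Of all starts, 3.64% were lower and 3.39% higher. The Nr5a2 start stood at 29.1% in TET_KO_D0 and 41.9% in TET_WT_D2.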

How the data were processed

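Whole-genome bisulfite libraries of TET_KO_D0 and TET_WT_D2, with 3 replicates each, were compared, and 21 further libraries were used only where named. Per the submitters' processing notes, the tools were Bismark 0.23.0, cutadapt 2.3 and Trim Galore 0.6.6, and the build was GRCm38. The authors deposited percent methylation for each library and 100-CpG window. No counts or coverage came with the table used here, so depth is unknown, no counting interval is given and no count test could be run; how windows were filled is not given in the sources used here.

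Percentages were fitted as deposited with limma 3.58.1 (R 4.3.3; lmFit, eBayes with trend) on the 6 libraries over the 444250 nuclear windows with a value in all 27 libraries, with Benjamini-Hochberg adjustment over them. Genes were fitted alike over 46064 autosomal RefSeq genes (GRCm38.p6, positions), adjusted over all of them. On simulated data, differences of 10, 15, 20 and 30 points given to 50 windows each among 444250 were called in 1, 25, 47 and 50 windows of this comparison, with 14 unchanged windows called; noise was drawn per window alone. Class means were tested by two-sided exact permutation of 3 against 3. Other steps used Python 3.11.15, numpy 2.4.6, pandas 2.3.3 and scipy 1.17.1.

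Named windows, runs and genes followed a rule of size of the difference: the 10 largest called windows and genes of at least 3 windows in each direction, the 5 longest runs, up to 4 called members of a list in each direction and 2 of a family; the text gives a selection. Members, lists and classes were chosen with earlier results of these data known. Genes named by their start, miRNA loci, 1-Mb bins and the protein-coding refit were chosen after seeing the data. Same-numbered libraries of the 2 groups had correlations of deviations of 0.00693, -0.0177 and -0.0259, so numbers were not treated as pairs.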

Additional observations from a re-analysis of the deposited data

How the results depend on the processing

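No called window was called in the opposite direction under any refit. With a 20-point minimum there were 1806 higher and 1739 lower windows and 94 higher and 71 lower genes; with none, 40700 and 58917 windows and 5163 and 7112 genes. Genes of at least 3 windows gave 222 higher and 295 lower; protein-coding genes, a refit added after seeing the data, gave 341 and 217. Leaving out single replicates gave 15730 to 38941 higher and 20110 to 42036 lower windows, and 1090 to 2469 higher and 811 to 2087 lower genes; the extremes came without TET_KO_D0 replicate 3 and TET_WT_D2 replicates 2 and 3. The genome difference then ran from -1.88 to 0.58 points, and was -0.62 for the median and 0.07 weighted by length. With equal library medians the class under 1 kb differed by 1.24 points. The cause of these shifts was not tested. The fit with replicate number as a block gave 24633 higher and 30399 lower windows and 1382 and 1344 genes, and changed no call of a named item; the numbers do not pair the samples. The fit over 27 libraries gave 24528 and 30230 windows, the logit scale 24269 and 30019.

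Of named windows, 236 of 236 refits kept their call, but these windows were chosen as the largest differences, so a change was unlikely. Of 1069 refits of named genes 1005 did, 45 fell short of the threshold, 6 newly passed it and 13 changed sign. At the CpG-dense end, differences of the other sign were -0.60 for Spry4, -1.24 for Scd2, -0.997 for Lyl1, -0.82 for Emx2, -0.055 for Ehmt2, 1.05 for Sdha, 7.35 for Dnmt3b, -0.60 for Uhrf1, -0.96 for Tet1, 0.61 for Tet2 and 1.26 for Tet3. Dnmt1 was at -0.26 without TET_KO_D0 replicate 3 and at -0.66 without TET_WT_D2 replicate 3, and over all single omissions ran from -0.66 to 2.84.

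Depth is unknown, so thinly covered windows could not be set apart. Of 50 simulated differences each, 1 of 10 points and 25 of 15 points were called. The simulation changed far fewer windows than differed in the data, so these shares do not give the sensitivity here.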

Other observations

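Over bins of 1 Mb, TET_KO_D0 minus TET_WT_D2 ran from -10.3 points at chr5:104000001-105000000 (50.1% in TET_KO_D0 and 60.4% in TET_WT_D2) to 15.1 points at chr14:110000001-111000000 (42.3% in TET_KO_D0 and 27.1% in TET_WT_D2). Of 2398 bins, 347 differed by more than 5 points, with a median window length of 9417 bp, and 108 by less than -5 points, with a median of 4535 bp. Of the 347, 30 lay on chromosome 14, which holds 4.54% of all windows. The chromosome 5 bin holds the pseudogene Gm29716, at 37.1% in TET_KO_D0 and 66.4% in TET_WT_D2, the gene Gm31255, at 31.1% in TET_KO_D0 and 54.5% in TET_WT_D2, and Zfp33b, at 39.6% in TET_KO_D0 and 60.2% in TET_WT_D2. Their TET_WT_D0 levels were 42.2%, 29.1% and 38.6%, so TET_KO_D0 lay near or under its day 0 parent in these genes, while over the whole bin TET_WT_D0 was at 31.9%. The start window of Pkd2, the polycystin-2 gene, lies in the same bin and stood at 22.4% in TET_KO_D0 and 45.9% in TET_WT_D2, with 21.2% in TET_WT_D0. These bins were drawn after seeing the data, and no test was run on them.

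In 29 windows TET_KO_D0 was over 50% and TET_WT_D2 under 20%, and in 35 windows TET_KO_D0 was under 20% and TET_WT_D2 over 50%. The first set had a median length of 1933 bp and medians of 5.83% in TET_WT_D0 and 25.1% in DNMT_WT_D2. The second had a median length of 3642 bp and medians of 3.796% in TET_WT_D0 and 51.2% in DNMT_WT_D2.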
